A study of Mus musculus with 112 samples.

Results

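The bone morphogenetic protein (BMP) genes described here are 3 ligand genes (Bmp2, Bmp4 and Bmp7) and 7 genes known as targets of the pathway (Id1, Id2, Id3, Id4, Msx1, Msx2 and Smad6). They were chosen by symbol, and all 10 had a row among the 25209 genes counted in each of 112 RNA-seq libraries of mouse embryonic stem cells (ESCs) and their derivatives. The libraries fall into 34 groups by genotype, culture and treatment, with 2 to 11 libraries in a group and 2 libraries in 18 of the groups. The study asked what the histone demethylase LSD1 (gene Kdm1a) does in ESCs beyond its catalysis, and how its CoREST partners RCOR1 and RCOR2 and the acetyltransferases P300 and CBP bear on that.

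BMP ligands are secreted dimers that bind serine/threonine kinase receptors, and the receptors phosphorylate SMAD1, SMAD5 and SMAD9. These SMADs enter the nucleus with SMAD4 and switch on targets such as the Id genes, whose products hold bHLH transcription factors off DNA, the homeobox genes Msx1 and Msx2, and the inhibitory SMAD gene Smad6, which feeds back on the receptors. In the early mouse embryo BMP4 is needed for mesoderm, BMP2 is made in endoderm and heart-forming tissue, and in serum culture BMP signalling through Id genes helps to hold ESCs undifferentiated.

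All lines were derived from V6.5 ESCs kept in serum-free medium with 2 kinase inhibitors and LIF (naive ESCs). The altered genotypes, in the spelling used here, were LSD1KO (promoter and first exon of Kdm1a deleted), LSD1CI (endogenous LSD1 made catalytically inactive), RCOR1KO, RCOR2KO, RCOR12DKO (both RCOR genes knocked out), MLL4KO (the enhancer methyltransferase gene Kmt2d), MLL4LSD1_DKO, MLL4KO_LSD1CI, LSD1Res (LSD1KO cells with doxycycline-inducible LSD1) and DKO_LSD1 (RCOR12DKO cells with the same inducible LSD1), and WT cells were their control. Embryoid bodies (EBs), which are aggregates of differentiating cells, were made from RCOR12DKO, LSD1KO, RCOR2KO, LSD1CI, RCOR1KO and WT cells and collected at day 6. LSD1KO, LSD1CI and WT cells were also kept in serum (FBS) for 4 days or turned into epiblast-like cells (EpiLCs) with activin A and FGF2 for 2 days, all with the solvent DMSO. LSD1KO ESCs, EBs, FBS cells and EpiLCs were in addition given A485, an inhibitor of the acetyltransferases P300 and CBP, or DMSO. LSD1Res, DKO_LSD1 and LSD1KO ESCs were compared with and without doxycycline (DOX). The lines are clones, and the labels do not say which libraries share a clone or culture, so p-values measure the spread between these libraries, which may be in part technical.

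Levels are given as CPM, a gene's counted reads divided by the total of its library in M counts (M for mega). The library totals were 17.2 to 58.2 M counts (median 39 M). Differences are log2 fold changes ± standard error from edgeR's quasi-likelihood test fitted over all genes, and a gene was called changed at an adjusted p below 0.01 with a log2 fold change beyond 1 in either direction. Where libraries are said not to overlap, this describes the gene named, and the share of all genes that do not overlap was not counted. Kdm1a had 0.360 to 7.95 CPM in the LSD1KO groups and 141 to 226 CPM in WT ESCs, and Rcor1 and Rcor2 had 2.15 to 7.14 CPM in RCOR12DKO libraries and 36.4 to 153 CPM in WT ESCs and EBs. Rcor2 had 44.6 and 53.8 CPM in the EBs labelled RCOR2KO, against 121 to 153 CPM in WT EBs and 0.674 to 4.46 CPM in RCOR2KO ESCs. These EBs thus held far more Rcor2 RNA than ESCs of the same label. The reason was not tested, and they are named by their label throughout. Kmt2d had 154 to 228 CPM in MLL4KO and MLL4LSD1_DKO ESCs and in MLL4KO_LSD1CI libraries 1 and 2, against 307 to 746 CPM in WT ESCs, while MLL4KO_LSD1CI libraries 3 and 4 had 344 and 398 CPM. Its level thus did not set those 2 libraries apart from WT, and Kmt2d was also lower in LSD1KO ESCs (271 to 455 CPM, -0.81 ± 0.17). In 9 ESC libraries (6 LSD1KO and 3 of 11 WT), 101 genes on unplaced contigs had no reads while every other library had at least 4241. The fits with these libraries carry a term for this difference, and LSD1KO ESCs are in effect compared with those 3 WT libraries. The term is called the alignment term below, although the labels do not say why these libraries differ. WT EB libraries 2 and 6 stood apart in several results below: their summed CPM of 9 cardiac markers was 145 and 206, against 425 to 834 in the other 5 WT EB libraries. They were also the lowest WT EB libraries for Bmp4, Msx2 and Smad6.

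The sequences upstream of the target genes are shown because SMAD complexes downstream of BMP receptors are known to bind a GC-rich element, GGCGCC, often beside the SMAD-binding tetramer GTCT or its reverse complement AGAC. In genome build mm9, GGCGCC (the same on both strands) lies within 2000 bases upstream of 5 of the 10 genes, Id1, Id2, Id3, Id4 and Smad6, and of 21.7% of 25044 genes. With GTCT or AGAC within 50 bases it lies upstream of 1 of the 10, Id1, and of 10.9% of the 25044. Each line below is read on the strand of its gene from 5′ to 3′, and capitals mark GGCGCC and any GTCT or AGAC within 50 bases of it. The lines are windows of 106 bases, and distances run from the first base of GGCGCC to the start of the gene. In the Id1 window (chr2:152560838-152560943, + strand) GGCGCC begins 1099 bases before the gene (chr2:152561987-152563146), in the Id2 window (chr12:25781133-25781238, - strand) 231 bases before the gene (chr12:25778664-25780957), and in the Smad6 window (chr9:63870813-63870918, - strand) 1002 bases before the gene (chr9:63800883-63869866). In the Id4 window (chr13:48356287-48356392, + strand) GGCGCC begins 148 bases before the gene (chr13:48356485-48361397). This window is within the span of A330033J07Rik but in none of its exons. The Id3 match begins 318 bases before the gene start used here, in a window that overlaps an annotated Id3 exon, and that window is not printed. These matches are a description of the windows, and no match was found upstream of Bmp2, Bmp4, Bmp7, Msx1 or Msx2.
Id1: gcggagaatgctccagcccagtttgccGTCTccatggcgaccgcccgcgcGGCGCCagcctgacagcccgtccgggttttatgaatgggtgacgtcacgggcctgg
Id2: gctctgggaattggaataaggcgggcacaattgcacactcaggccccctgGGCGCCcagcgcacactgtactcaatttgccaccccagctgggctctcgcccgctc
Id4: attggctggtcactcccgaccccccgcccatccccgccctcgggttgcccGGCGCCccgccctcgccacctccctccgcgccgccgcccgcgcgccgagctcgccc
Smad6: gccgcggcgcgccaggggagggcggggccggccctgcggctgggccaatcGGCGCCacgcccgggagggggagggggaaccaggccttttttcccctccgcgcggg

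In WT cells the 3 ligand genes, Id1, Id2, Id3, Msx1, Msx2 and Smad6 were all higher in day 6 EBs than in naive ESCs, and Id4 was lower. Of the 10 genes, 9 rose and 1 fell (all 10 also by DESeq2), where 35.5% of all genes tested were called in this comparison. The median log2 fold change was 4.57 over the 10 genes and 0.07 over all genes. Bmp2 had 38.6 to 61.4 CPM in WT EBs (median 53.1, n = 7) and 0 to 0.321 CPM in WT ESCs (median 0.0531, n = 11), a log2 fold change of 9.34 ± 0.44 (adjusted p = 5.3e-14). Its 7 EB libraries were all far above its 11 ESC libraries, 4 of which had no read. Bmp4 had 14.2 to 75.4 CPM in WT EBs (median 67.0) and 0.617 to 12.4 CPM in WT ESCs (median 5.05), rising by 2.88 ± 0.42 (adjusted p = 2.9e-06). Bmp7 had 47.3 to 94.5 CPM in WT EBs (median 66.6) and 3.60 to 10.6 CPM in WT ESCs (median 7.73), rising by 2.89 ± 0.19 (adjusted p = 1.3e-11). Bmp4 and Bmp7, unlike Bmp2, were thus already transcribed in naive ESCs.

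Among the targets, Id1 had 55.8 to 113 CPM in WT EBs (median 89.3) and 1.66 to 4.02 CPM in WT ESCs (median 2.39), a log2 fold change of 5.07 ± 0.19 (adjusted p = 1.3e-15). Id2 and Id3 rose by 5.16 ± 0.29 and 4.07 ± 0.40. Msx1 had 2.85 to 120 CPM in WT EBs (median 40.2) and 0.0532 to 1.15 CPM in WT ESCs (median 0.346), rising by 7.34 ± 0.68. The spread of Msx1 over the WT EBs was wide, with the lowest value in library 2, yet every EB library stood above every ESC library. Msx2 and Smad6 rose by 7.31 ± 0.63 and 3.09 ± 0.29. Id4, the Id family member best known from neural progenitors, went the other way, with 2.27 to 4.65 CPM in WT EBs (median 3.80) and 3.48 to 20.5 CPM in WT ESCs (median 11.5), a log2 fold change of -1.61 ± 0.32 (adjusted p = 0.00014). Per kilobase of exon, Id3 had the highest mean level of the 10 genes in WT EBs (102 CPM per kb) and Id4 the lowest (0.889 CPM per kb), while in WT ESCs Id3 was again highest (5.46 CPM per kb) and Bmp2 lowest (0.025 CPM per kb). Cardiac, endoderm and early mesoderm markers moved along with these genes: 8 of 9, 8 of 8 and 5 of 5 rose in WT EBs. In bulk EBs, fewer cells of a type and less RNA per cell cannot be told apart, here and in every EB comparison below.

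Serum and EpiLC cultures gave other subsets of the targets. In WT FBS cells against WT ESCs, 4 of the 10 genes rose and 2 fell (6 by DESeq2), where 20.0% of all genes were called. Id1 had 26.6 and 39.6 CPM in WT FBS cells, against 1.66 to 4.02 CPM in WT ESCs, and Id2 had 33.0 and 35.8 CPM, against 0.690 to 3.02 CPM. Id1 rose by 3.77 ± 0.22 and Id2 by 4.48 ± 0.33, while Id3 (1.92 ± 0.51) and Msx1 (3.81 ± 0.79) were called as well. Bmp7 (-1.10 ± 0.31) and Id4 (-3.39 ± 0.61) fell, and Bmp4 (-2.10 ± 0.75, adjusted p = 0.029) did not pass. The Bmp7 and Id3 calls were lost without either FBS library (adjusted p = 0.057 and 0.085 for Bmp7, 0.030 and 0.047 for Id3).

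In WT EpiLCs against WT ESCs, 2 genes rose and 2 fell (4 by DESeq2), where 15.9% of all genes were called. Id2 had 9.93 and 8.01 CPM in WT EpiLCs, against 0.690 to 3.02 CPM in WT ESCs, and rose by 2.65 ± 0.35 (adjusted p = 4.0e-06). Id1, by contrast, had 1.35 and 1.19 CPM in WT EpiLCs, below every WT ESC library (1.66 to 4.02 CPM), with a log2 fold change of -0.83 ± 0.29 that did not pass (adjusted p = 0.032). Id4 fell by 3.93 ± 0.64 and Bmp7 fell by 1.76 ± 0.33, the Bmp7 call being lost without EpiLC library 1 (adjusted p = 0.017). Bmp2 was called as risen by 2.71 ± 0.69, but its level stayed under 0.5 CPM in both EpiLC libraries and the call was lost without either of them (adjusted p = 0.016 and 0.075). The FBS cells and EpiLCs had DMSO and the ESCs did not, so culture and solvent cannot be told apart.

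**Figure D1:**
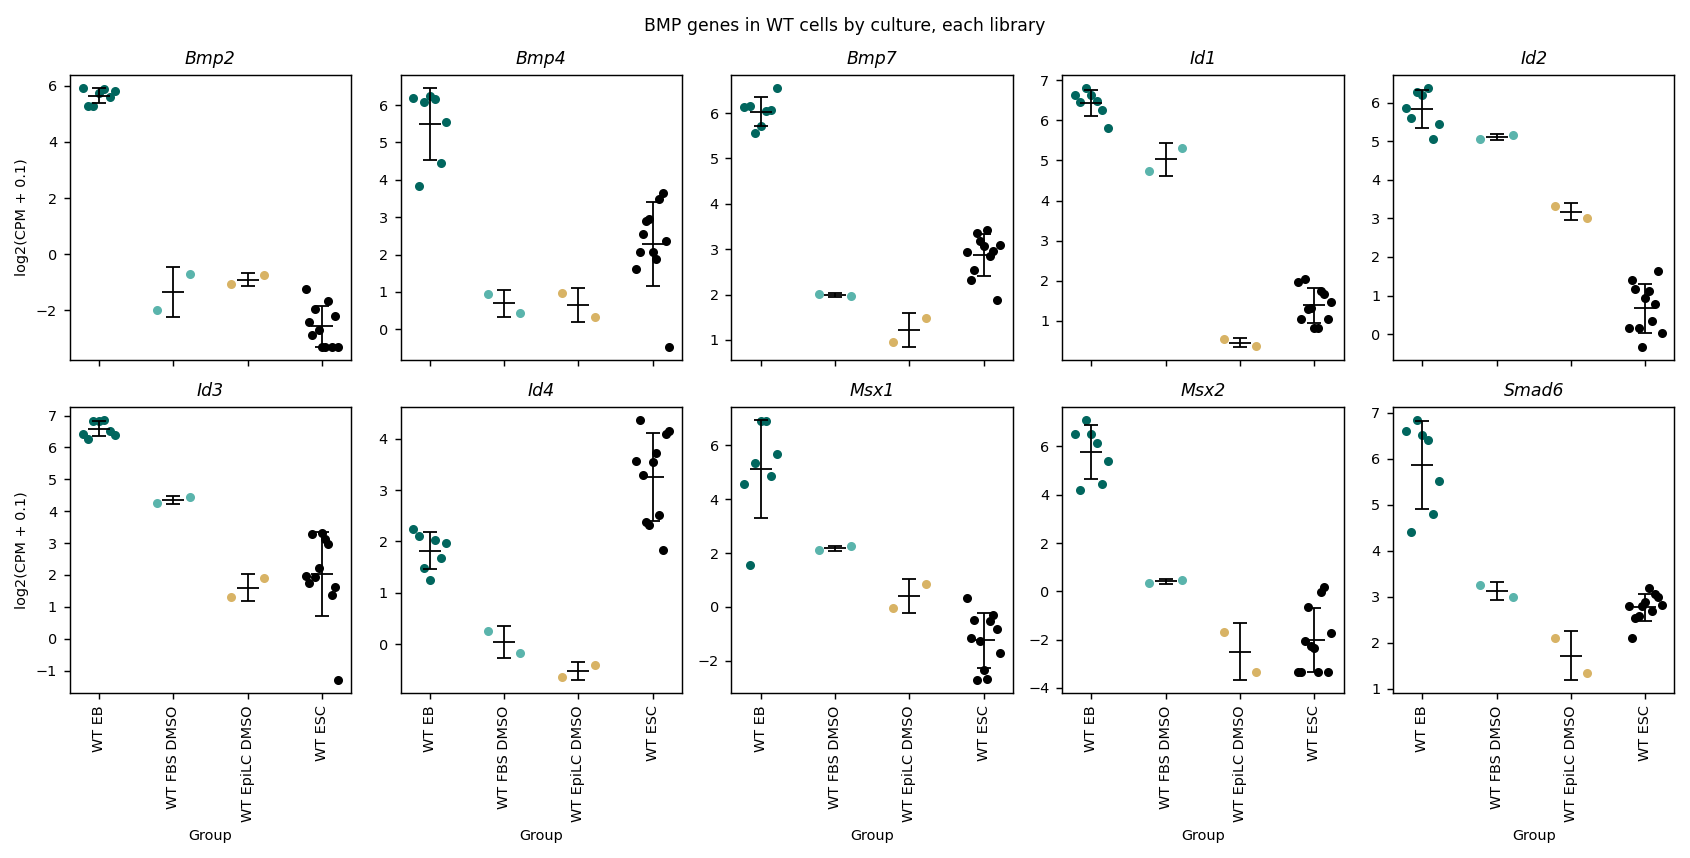
Level of each gene in WT EBs, FBS cells, EpiLCs and ESCs, with 1 point per library on a log2(CPM + 0.1) axis and bars for the mean ± SD of the log2 values. Bmp2, Msx1 and Msx2 reach their highest WT levels in EBs, Id1 and Id2 are high in EBs and FBS cells, and Id4 is on average highest in ESCs.

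EBs lacking both RCOR genes had less RNA of all 3 ligand genes and of every target gene but Id4. In RCOR12DKO EBs, 9 of the 10 genes fell and none rose (9 by DESeq2), where 26.4% of all genes tested were called, and the median log2 fold change was -3.45 over the 10 genes and -0.03 over all genes. Bmp2 had 0.719, 0.597, 0.234 and 0.397 CPM in RCOR12DKO EBs, against 38.6 to 61.4 CPM in WT EBs (median 53.1), a log2 fold change of -6.73 ± 0.26 (adjusted p = 5.0e-14). Bmp7 had 2.76, 4.44, 3.66 and 4.79 CPM, against 47.3 to 94.5 CPM in WT EBs (-4.11 ± 0.18, adjusted p = 3.2e-13). Bmp4 had 6.56, 8.76, 8.34 and 7.14 CPM, against 14.2 to 75.4 CPM in WT EBs (-2.79 ± 0.46, adjusted p = 3.2e-05). For all 3 ligands the knockout and WT libraries did not overlap.

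The targets followed in the same EBs. Msx2 had 0.839, 1.33, 0.819 and 0.624 CPM in RCOR12DKO EBs, against 18.4 to 136 CPM in WT EBs (median 71.3), a log2 fold change of -6.25 ± 0.65 (adjusted p = 9.2e-08). Msx1 had 1.56, 1.92, 1.05 and 1.36 CPM, against 2.85 to 120 CPM in WT EBs (-5.26 ± 0.81), and Smad6 had 3.09, 3.18, 2.96 and 2.75 CPM, against 21.1 to 114 CPM (-4.53 ± 0.50). Even the low WT EB library 2 was above every RCOR12DKO library for these 3 genes. Id1 had 24.4, 18.2, 11.4 and 15.4 CPM in RCOR12DKO EBs, against 55.8 to 113 CPM in WT EBs, and fell by 2.36 ± 0.24. Id2 and Id3 fell by 2.26 ± 0.30 and 2.64 ± 0.18, so the 3 Id genes dropped less steeply than Bmp2 and the Msx genes, although these differences in slope were not tested. Id4 had 3.59, 2.22, 2.90 and 2.24 CPM in RCOR12DKO EBs, against 2.27 to 4.65 CPM in WT EBs, and was not called (-0.37 ± 0.29, adjusted p = 0.28). Markers moved with the genotype: 8 of 9 cardiac, 8 of 8 endoderm and 4 of 5 early mesoderm markers fell and 7 of 9 neural ectoderm markers rose. Summed cardiac markers were 28.7 to 31.2 CPM in RCOR12DKO EBs and 145 to 834 CPM in WT EBs, summed endoderm markers 58.3 to 77.4 CPM and 323 to 494 CPM, and Ttr was at 0 in all 4 RCOR12DKO libraries. The part of these markers' cell types in the result was not tested.

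LSD1KO EBs had less Bmp2, Bmp7 and Smad6 RNA than WT EBs, while none of the Id genes was called. The 3 genes fell and no gene rose, 3 of 10 called (5 by DESeq2) where 13.7% of all genes were called. Bmp2 had 3.43 and 3.71 CPM in LSD1KO EBs, against 38.6 to 61.4 CPM in WT EBs, and fell by 3.82 ± 0.29 (adjusted p = 7.0e-09). Bmp7 had 13.5 and 11.7 CPM, against 47.3 to 94.5 CPM in WT EBs, and fell by 2.39 ± 0.22 (adjusted p = 1.1e-07). Smad6 had 12.4 and 11.8 CPM, against 21.1 to 114 CPM in WT EBs (-2.49 ± 0.59, adjusted p = 0.0025). The Smad6 groups did not overlap, yet its call was lost without either LSD1KO library (adjusted p = 0.035 and 0.045). Id1 had 52.9 and 94.4 CPM in LSD1KO EBs, against 55.8 to 113 CPM in WT EBs, with a log2 fold change of -0.25 ± 0.27 (adjusted p = 0.51). Id2 (-0.29 ± 0.35) and Id4 (-0.37 ± 0.38) also missed the threshold, and Id3 (-0.76 ± 0.21, adjusted p = 0.0080) changed by less than the fold required.

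Bmp4 and both Msx genes stood at intermediate values in LSD1KO EBs. Bmp4 had 19.1 and 17.6 CPM, against 14.2 to 75.4 CPM in WT EBs (-1.51 ± 0.57, adjusted p = 0.042), Msx1 had 7.74 and 8.55 CPM, against 2.85 to 120 CPM (-2.76 ± 0.92, adjusted p = 0.023), and Msx2 had 13.4 and 20.3 CPM, against 18.4 to 136 CPM (-1.99 ± 0.65, adjusted p = 0.021). In all 3 genes the overlap came from WT EB library 2. With WT EB libraries 2 and 6 left out, a choice made after seeing the data, 6 genes were called: Bmp4 (-1.86, adjusted p = 0.0023), Msx1 (-3.14, adjusted p = 0.0016) and Msx2 (-2.37, adjusted p = 0.0013) joined the other 3. Those WT libraries were themselves low in Bmp4 and Msx2, and library 2 in Msx1, so the gained calls are no added support. In LSD1KO EBs 6 of 9 cardiac and 8 of 8 endoderm markers fell, while 2 of 5 early mesoderm and 6 of 9 neural ectoderm markers rose, and Afp was at 0 in both libraries. Summed early mesoderm markers were 667 and 811 CPM in LSD1KO EBs, 13.4 to 19.2 CPM in RCOR12DKO EBs and 116 to 328 CPM in WT EBs, and their part in the result was not tested.

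In the EBs labelled RCOR2KO, Bmp2, Bmp7 and Smad6 fell and no gene rose, 3 of 10 called (5 by DESeq2) where 5.28% of all genes were called. Bmp2 had 6.99 and 4.74 CPM in these EBs, against 38.6 to 61.4 CPM in WT EBs (-3.18 ± 0.28, adjusted p = 4.8e-07). Bmp7 had 23.4 and 31.0 CPM, against 47.3 to 94.5 CPM (-1.34 ± 0.21, adjusted p = 0.00016), and Smad6 had 8.84 and 4.52 CPM, against 21.1 to 114 CPM (-3.42 ± 0.63, adjusted p = 0.0011). The libraries did not overlap WT for any of the 3 genes, but the Smad6 call was lost without either RCOR2KO library (adjusted p = 0.011 and 0.052). Bmp4 (-2.18 ± 0.60, adjusted p = 0.017) and Msx2 (-2.73 ± 0.69, adjusted p = 0.010) narrowly missed, and both were called without WT EB libraries 2 and 6 (5 genes in all). Those WT libraries were themselves low in Bmp4 and Msx2, so the gained calls are no added support. Cardiac (7 of 9) and endoderm (7 of 8) markers fell here as well and 4 of 9 neural ectoderm markers rose. Their sums were 32.6 and 19.6 CPM for cardiac markers, against 145 to 834 CPM in WT EBs, 78.5 and 97.6 CPM for endoderm, against 323 to 494 CPM, and 352 and 333 CPM for neural ectoderm, against 42.3 to 204 CPM. Their part in the result was not tested. All comparisons of this kind share the 7 WT EB libraries.

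In EBs with catalytically inactive LSD1 and in RCOR1KO EBs, none of the 10 genes passed the edgeR test. LSD1CI EBs had 0 genes called (2 at an unadjusted p below 0.05, 0 by DESeq2), where 2.54% of all genes were called. Bmp2 had 34.6, 39.01, 44.7 and 48.8 CPM in LSD1CI EBs, against 38.6 to 61.4 CPM in WT EBs (-0.22 ± 0.17), and Smad6 had 54.6, 81.0, 129 and 120 CPM, against 21.1 to 114 CPM (0.56 ± 0.38). Both genes overlapped WT widely. Id3 had 128, 133, 122 and 131 CPM in LSD1CI EBs, all above the WT range of 77.2 to 116 CPM, with a small log2 fold change of 0.46 ± 0.16 (adjusted p = 0.056). RCOR1KO EBs had 0 genes called (0 at an unadjusted p below 0.05, 0 by DESeq2), where 0.00558% of all genes were called, with log2 fold changes between -0.39 and 0.31. No cardiac marker was called in either genotype.

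LSD1KO and LSD1CI EBs were also compared directly, since both lack the enzyme activity and only the first lacks the protein. Of the 10 genes 5 fell in LSD1KO EBs relative to LSD1CI EBs (6 by DESeq2), where 11.4% of all genes were called. Bmp2 had 3.43 and 3.71 CPM in LSD1KO EBs, against 34.6, 39.01, 44.7 and 48.8 CPM in LSD1CI EBs (-3.60 ± 0.29, adjusted p = 8.0e-08). Bmp7 had 13.5 and 11.7 CPM, against 50.3, 54.6, 52.0 and 46.4 CPM (-2.05 ± 0.23, adjusted p = 2.3e-06), so neither ligand overlapped between the genotypes. Id3 had 49.97 and 63.7 CPM, against 122 to 133 CPM (-1.22 ± 0.23), Msx1 had 7.74 and 8.55 CPM, against 48.8 to 156 CPM (-3.72 ± 1.00), and Smad6 had 12.4 and 11.8 CPM, against 54.6 to 129 CPM (-3.04 ± 0.63). The Msx1 and Smad6 calls rested on both LSD1KO libraries, with an adjusted p of 0.071 and 0.021 without library 1 and of 0.073 and 0.026 without library 2. The Id3 call was lost without LSD1KO library 1 (adjusted p = 0.020). The Msx1 call was also lost without LSD1CI library 2, 3 or 4 (adjusted p = 0.011 to 0.018).

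**Figure D2:**
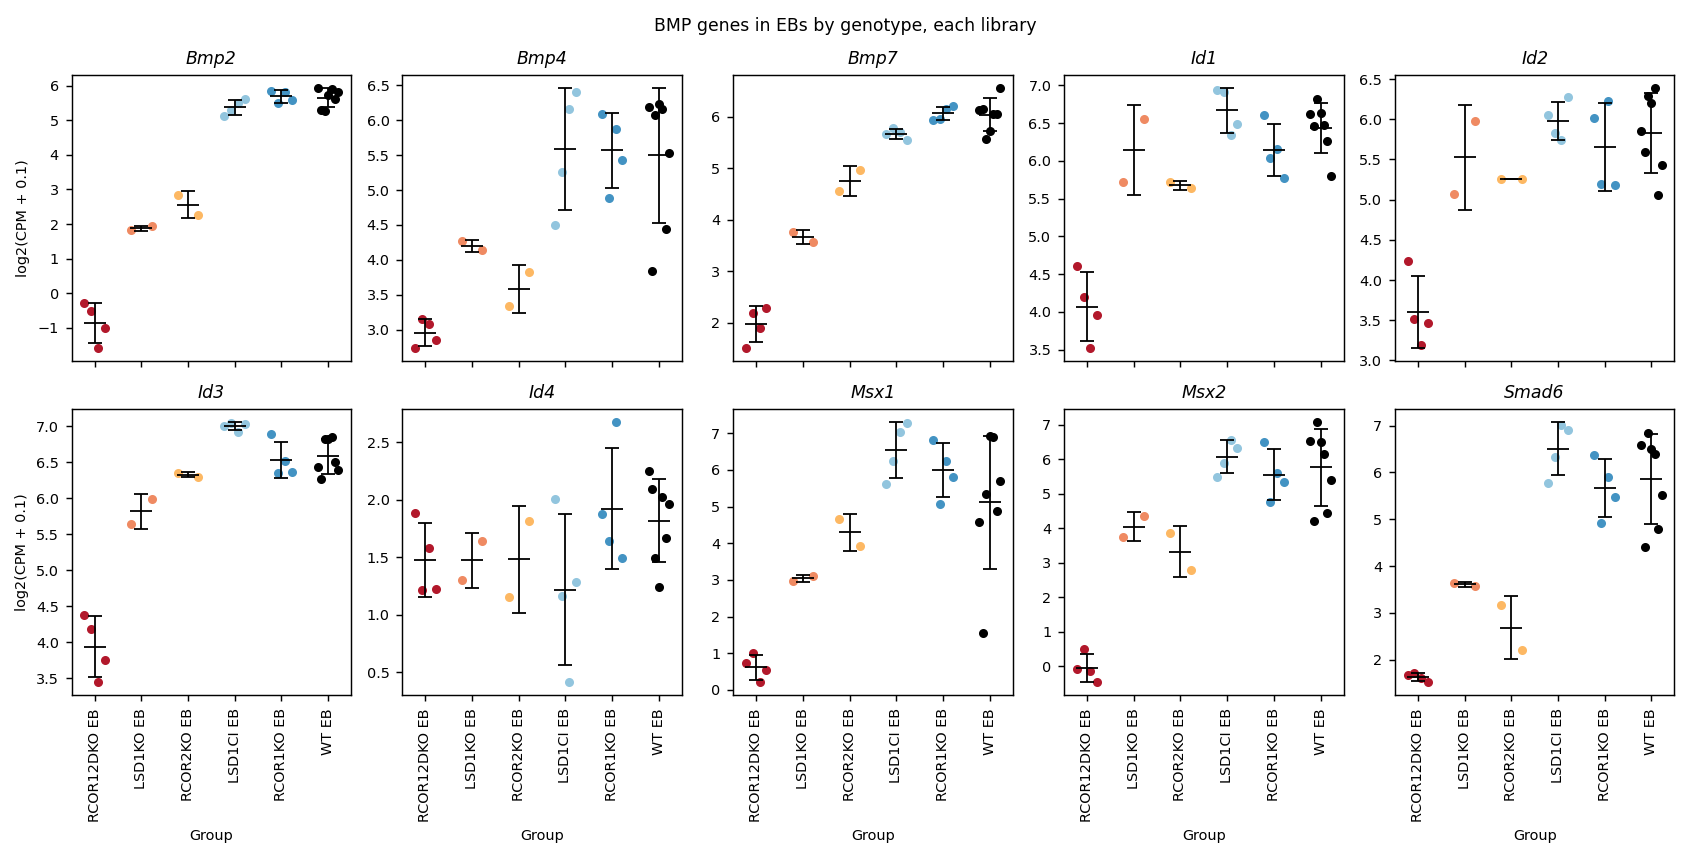
Level of each gene in EBs of 6 genotypes, with 1 point per library on a log2(CPM + 0.1) axis and bars for the mean ± SD of the log2 values. RCOR12DKO libraries lie below all WT libraries for every gene but Id4, and LSD1KO and RCOR2KO libraries lie below WT for Bmp2, Bmp7 and Smad6. LSD1KO libraries also lie below WT for Id3, and RCOR2KO libraries for Id1, Msx2 and, barely, Bmp4, none of which was called.

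The change on EB formation itself was compared between genotypes by an interaction, that is, the EB against ESC difference in knockout cells minus the same difference in WT cells. For RCOR12DKO all 10 genes were called (10 by DESeq2), 9 lower and 1 higher, where 19.7% of all genes were called. The difference was -7.18 ± 1.06 for Bmp2, -6.44 ± 0.95 for Msx2, -5.82 ± 0.99 for Msx1 and -4.77 ± 0.41 for Smad6. It was -3.66 ± 0.58 for Bmp4 and -2.90 ± 0.31 for Bmp7, and -1.32 ± 0.32, -3.59 ± 0.41 and -3.70 ± 0.58 for Id1, Id2 and Id3. Id4, which falls in WT EBs, gave 1.99 ± 0.48, and it was low in RCOR12DKO ESCs to begin with (2.64, 2.46, 1.13 and 1.83 CPM, against 3.48 to 20.5 CPM in WT ESCs).

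For LSD1KO the interaction was called for 3 genes (4 by DESeq2), where 14.8% of all genes were called. Bmp4 gave -2.61 ± 0.74 (adjusted p = 0.0061), with ESC values of 8.66 to 11.3 CPM in LSD1KO and 0.617 to 12.4 CPM in WT cells. Smad6 gave -2.61 ± 0.50 (adjusted p = 0.00014), and Id1 gave 1.82 ± 0.36 (adjusted p = 0.00016). Id1 was thus lower than WT in LSD1KO ESCs (0.522 to 1.12 CPM, against 1.66 to 4.02 CPM) while its LSD1KO EB values of 52.9 and 94.4 CPM lay just under and within the WT EB range of 55.8 to 113 CPM. The Bmp4 value lost its call without either LSD1KO EB library (adjusted p = 0.033 and 0.042), and the Id1 value without LSD1KO EB library 2 (adjusted p = 0.013).

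LSD1KO and WT EBs were made again with DMSO as the control arm of the A485 experiment, 2 libraries each. There 6 of the 10 genes fell in LSD1KO EBs and none rose (6 by DESeq2), where 18.8% of all genes were called, with a median log2 fold change of -2.18 over the 10 genes and 0.02 over all genes. Bmp2 had 4.64 and 5.93 CPM in LSD1KO EBs, against 46.4 and 38.0 CPM in WT EBs (-3.08 ± 0.20, adjusted p = 3.3e-07). Bmp4 had 13.8 and 11.8 CPM, against 70.5 and 45.6 CPM (-2.27 ± 0.21), and Bmp7 had 10.7 and 10.8 CPM, against 44.4 and 55.9 CPM (-2.31 ± 0.20). All 3 ligands were separated from WT in these EBs. Msx1 had 20.6 and 26.8 CPM in LSD1KO EBs, against 111 and 78.9 CPM in WT EBs (-2.09 ± 0.19), Msx2 had 5.76 and 13.8 CPM, against 76.9 and 55.2 CPM (-2.85 ± 0.39), and Smad6 had 9.62 and 10.4 CPM, against 70.7 and 50.4 CPM (-2.68 ± 0.18). These 3 targets did not overlap between the genotypes either, although 2 libraries against 2 can easily separate by chance. The Id genes again moved less: Id1 (-0.46 ± 0.12, adjusted p = 0.0069) and Id3 (-0.96 ± 0.14, adjusted p = 0.00021) stayed under the fold threshold, Id2 (-1.08 ± 0.29, adjusted p = 0.018) missed on p, and Id4 gave -0.30 ± 0.34. Cardiac markers (9 of 9) and endoderm markers (8 of 8) fell in the same libraries, with a cardiac sum of 37.5 and 39.5 CPM in LSD1KO EBs and 534 and 697 CPM in WT EBs.

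With A485 during EB formation, the Id genes of LSD1KO EBs fell along with the Msx genes, Bmp2, Bmp7 and Smad6. In LSD1KO EBs with A485 against LSD1KO EBs with DMSO, 9 of the 10 genes fell and none rose (9 by DESeq2), where 13.8% of all genes were called. Id1 had 8.62 and 8.69 CPM with A485, against 78.2 and 79.0 CPM with DMSO (-3.09 ± 0.13, adjusted p = 5.7e-08). Id2 had 3.19 and 6.33 CPM, against 39.7 and 64.6 CPM (-3.34 ± 0.33), and Id3 had 6.88 and 8.29 CPM, against 55.8 and 67.3 CPM (-2.92 ± 0.16). The 3 Id genes therefore lay far below their DMSO libraries. Msx1 had 0.168 and 0.0801 CPM with A485, against 20.6 and 26.8 CPM with DMSO, the steepest fall of the 10 (-7.53 ± 0.34, adjusted p = 8.6e-08). Msx2 had 0.224 and 0.360 CPM, against 5.76 and 13.8 CPM (-4.91 ± 0.57), though this call rested on both A485 libraries (adjusted p = 0.10 without either). Bmp2 had 0.336 and 0.240 CPM with A485, against 4.64 and 5.93 CPM with DMSO (-4.12 ± 0.28). Bmp4 alone was not called (-0.28 ± 0.21, adjusted p = 0.34), with 11.1 and 8.65 CPM, against 13.8 and 11.8 CPM. Bmp7 (-1.52 ± 0.21), Smad6 (-1.54 ± 0.19) and Id4 (-2.13 ± 0.38, lost without DMSO library 2, adjusted p = 0.015) made up the 9. All 5 early mesoderm markers fell with A485, to a sum of 16.2 and 17.2 CPM, against 403 and 555 CPM with DMSO, and 6 of 8 naive pluripotency markers rose, and their part was not tested.

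In the other 3 cultures A485 lowered some of the same genes and not others. The concentration and the time of treatment were not the same in all cultures, so the values stand side by side and were not compared. In LSD1KO ESCs, 8 of the 10 genes had enough reads to be tested and 6 fell (6 by DESeq2), where 17.6% of all genes were called. Smad6 had 1.05 and 1.00 CPM with A485, against 6.47 and 6.27 CPM with DMSO (-2.69 ± 0.23, adjusted p = 5.9e-09), and Id3 had 0.134 and 0.209 CPM, against 1.61 and 2.86 CPM (-3.74 ± 0.49). Bmp4 (-1.53 ± 0.21), Bmp7 (-1.34 ± 0.19), Id2 (-1.75 ± 0.29) and Id4 (-2.91 ± 0.47) fell as well. Id1 did not pass, at 1.34 and 1.09 CPM with A485, against 0.906 and 1.15 CPM with DMSO (0.17 ± 0.39, adjusted p = 0.73). All 8 naive pluripotency markers fell in these ESCs.

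In LSD1KO EpiLCs 3 genes fell with A485 and 1 rose (4 by DESeq2), where 17.6% of all genes were called. The gene that rose was Id1, with 17.9 and 25.5 CPM with A485, against 1.96 and 2.14 CPM with DMSO (3.29 ± 0.25, adjusted p = 4.5e-08). Its close relatives went the opposite way in the same libraries: Id3 had 0.195 and 0.137 CPM, against 1.04 and 1.16 CPM (-2.82 ± 0.44), and Id2 had 1.41 and 2.27 CPM, against 5.27 and 8.78 CPM (-2.05 ± 0.29). Id4 was called at -2.37 ± 0.70, but the call was lost without any 1 of the 4 libraries (adjusted p = 0.013 to 0.095). All 4 formative epiblast markers fell with A485 in EpiLCs, to a sum of 233 and 264 CPM, against 1473 and 1486 CPM.

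In LSD1KO FBS cells 4 genes fell with A485 and none rose (4 by DESeq2), where 12.5% of all genes were called. Bmp7 had 0.601 and 0.622 CPM with A485, against 3.08 and 4.05 CPM with DMSO (-2.62 ± 0.28, adjusted p = 2.9e-05), and Bmp4 had 1.18 and 1.69 CPM, against 5.02 and 4.998 CPM (-1.89 ± 0.33). Id4 (-2.38 ± 0.46) and Msx1 (-1.98 ± 0.39) fell too. The Bmp4, Id4 and Msx1 calls were lost without A485 library 1 (adjusted p = 0.012, 0.016 and 0.010), and the Msx1 call also without either DMSO library (adjusted p = 0.013 and 0.019). Id1 had 91.2 and 90.1 CPM with A485, against 52.0 and 59.5 CPM with DMSO, a log2 fold change of 0.62 ± 0.20 under the threshold (adjusted p = 0.044). Id2 (-0.34 ± 0.10) and Id3 (-0.25 ± 0.12) likewise stayed near their DMSO levels, at 28.1 and 28.3 CPM for Id2 and 42.6 and 49.9 CPM for Id3. Id1 was therefore lower with A485 in EBs, higher in EpiLCs, and not called in FBS cells or ESCs.

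**Figure D3:**
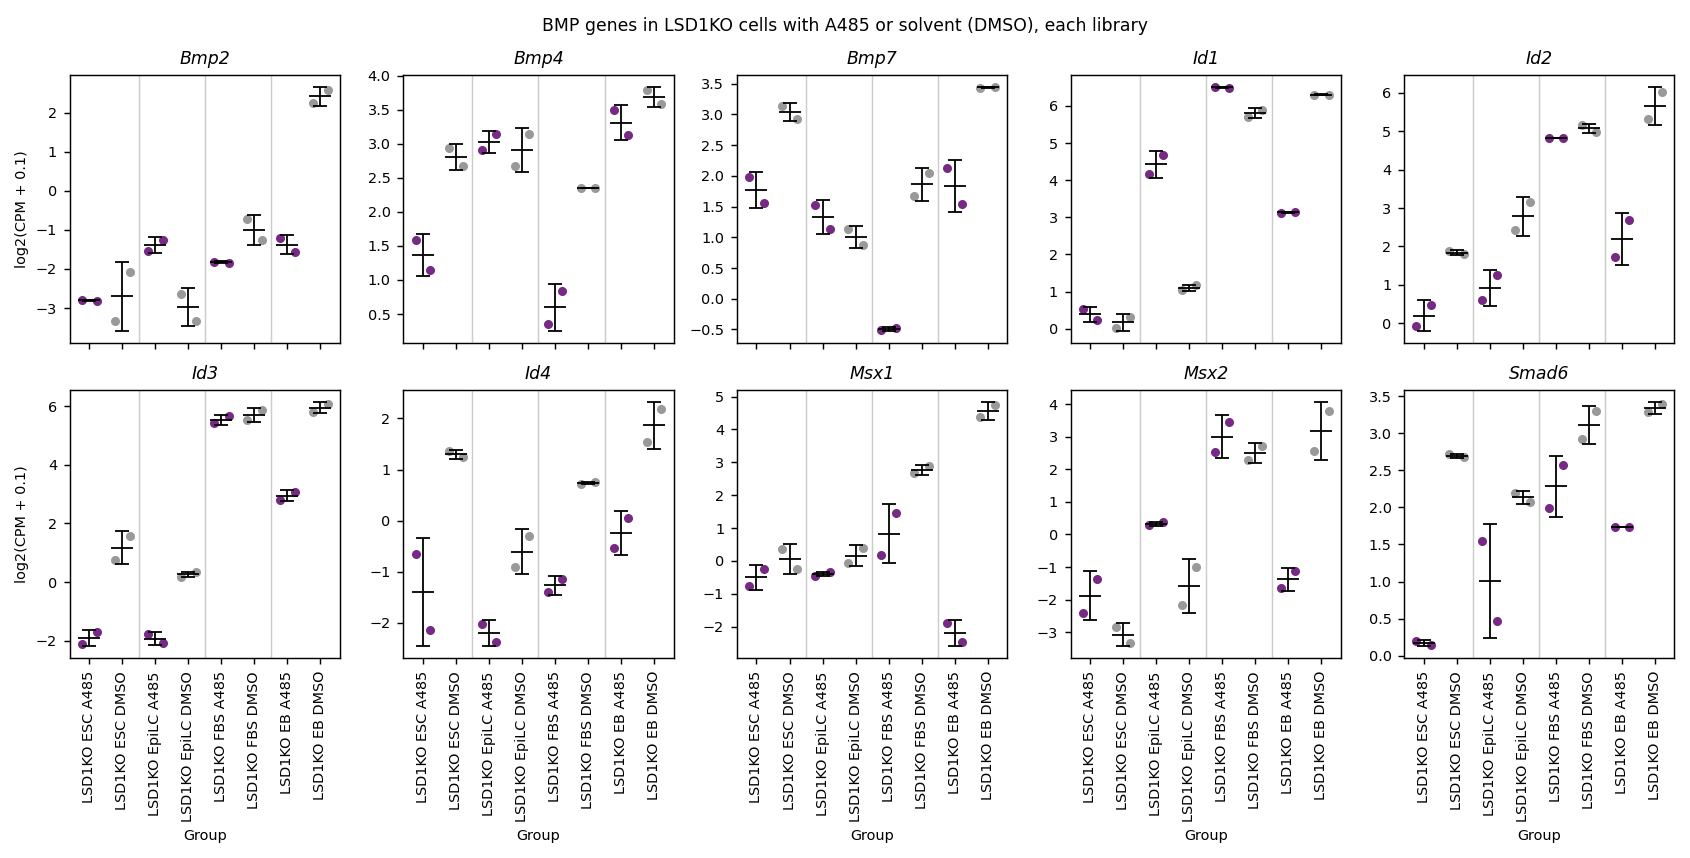
Level of each gene in LSD1KO cells with A485 (left of each pair) or DMSO in ESCs, EpiLCs, FBS cells and EBs, with 1 point per library on a log2(CPM + 0.1) axis and bars for the mean ± SD of the log2 values. Id1 lies lower with A485 in EBs and higher with A485 in EpiLCs.

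Without inhibitor, LSD1KO FBS cells and EpiLCs had more Bmp4 than WT. In FBS cells 2 genes rose in LSD1KO and none fell (3 called by DESeq2), where 9.55% of all genes were called. Bmp4 had 5.02 and 4.998 CPM in LSD1KO FBS cells, against 1.83 and 1.25 CPM in WT (1.69 ± 0.33, adjusted p = 0.0021), and Id3 had 46.0 and 58.3 CPM, against 19.0 and 21.5 CPM (1.36 ± 0.13, adjusted p = 2.3e-05). The Bmp4 call was lost without WT library 2 or either LSD1KO library (adjusted p = 0.011 to 0.022). Msx2 had 4.79 and 6.47 CPM in LSD1KO FBS cells, against 1.17 and 1.29 CPM in WT (2.18 ± 0.49, adjusted p = 0.0102) and narrowly missed the threshold. In LSD1CI FBS cells 1 gene rose (7 at an unadjusted p below 0.05, 4 called by DESeq2), where 2.99% of all genes were called. This was again Id3, with 62.2 and 74.4 CPM in LSD1CI FBS cells, against 19.0 and 21.5 CPM in WT (1.78 ± 0.13, adjusted p = 1.5e-05). Id3 was thus higher than WT in serum both in LSD1KO cells and in LSD1CI cells, whereas Bmp4 in LSD1CI FBS cells (1.42 and 2.04 CPM) gave 0.20 ± 0.33 against WT (adjusted p = 0.73). The median log2 fold change over the 10 genes was 1.03 in LSD1CI and 0.67 in LSD1KO FBS cells. Id1 (60.0 and 85.7 CPM), Id2, Bmp7, Msx1 and Msx2 (3.34 and 8.52 CPM) lay above both WT libraries in LSD1CI FBS cells without being called. Smad6 lay below both WT libraries there and was not called either. Naive pluripotency markers moved along, with 7 of 8 higher in LSD1KO and 4 of 8 in LSD1CI FBS cells. Their sum was 291 and 386 CPM in LSD1KO and 124 and 142 CPM in LSD1CI FBS cells, against 43.5 and 58.9 CPM in WT, and their part in the result was not tested.

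In EpiLCs 1 gene rose and 1 fell in LSD1KO (2 by DESeq2), where 9.49% of all genes were called. Bmp4 had 6.31 and 8.74 CPM in LSD1KO EpiLCs, against 1.86 and 1.15 CPM in WT (2.30 ± 0.27, adjusted p = 8.7e-06). Id3 had 1.04 and 1.16 CPM, against 2.37 and 3.62 CPM (-1.49 ± 0.33, adjusted p = 0.0022), a call lost without WT library 2 or either LSD1KO library (adjusted p = 0.014 to 0.041). The 2 called genes thus went opposite ways in EpiLCs. LSD1CI EpiLCs had 0 genes called by edgeR (2 at an unadjusted p below 0.05, 0 by DESeq2), where 2.15% of all genes were called, and Bmp4 there had 1.87 and 1.71 CPM (0.28 ± 0.28). Bmp7 there had 0.632 and 1.15 CPM, against 1.83 and 2.698 CPM in WT EpiLCs (-1.33 ± 0.37, adjusted p = 0.026), below WT in both libraries and short of the threshold. In LSD1KO EpiLCs 7 of 8 naive pluripotency markers were higher than in WT, with a sum of 262 and 303 CPM, against 71.6 and 95.5 CPM. The 4 formative epiblast markers summed to 1473 and 1486 CPM in LSD1KO and 2504 and 2514 CPM in WT EpiLCs, with none of the 4 called, and the part of these markers was not tested.

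In naive ESCs, where 9 of the 10 genes were lower than in EBs, the genotypes overlapped in part in the members they shifted. Against WT, Bmp7 was called as fallen in every genotype with a called gene, and each of these calls was lost under some alternative. The other called genes varied with the genotype. LSD1KO ESCs had 3 genes fallen and none risen (4 by DESeq2), where 13.3% of all genes were called. Id1 had 0.522 to 1.12 CPM in LSD1KO ESCs (median 0.792, n = 6) and 1.66 to 4.02 CPM in WT ESCs (median 2.39, n = 11), a log2 fold change of -2.08 ± 0.34 (adjusted p = 3.7e-06). Bmp7 had 1.68 to 3.07 CPM in LSD1KO ESCs (median 2.09) and 3.60 to 10.6 CPM in WT ESCs (median 7.73), falling by 1.52 ± 0.38 (adjusted p = 0.0013). Neither gene overlapped between the genotypes, though the Bmp7 call was lost without WT library 1 (adjusted p = 0.017). Id4 (-1.22 ± 0.33, adjusted p = 0.0026) was called too, a call lost without WT library 2 (-0.82, adjusted p = 0.064) and without the alignment term (-0.79). Id2 had 3.69 to 5.65 CPM in LSD1KO ESCs, above the 0.690 to 3.02 CPM of all 11 WT libraries, but missed the threshold in the fit with the alignment term (1.27 ± 0.46, adjusted p = 0.022). Against LSD1CI ESCs, LSD1KO ESCs had 2 genes fallen (3 by DESeq2), where 8.80% of all genes were called: Bmp7 (-2.01 ± 0.51, adjusted p = 0.0024) and Id1 (-1.75 ± 0.46, adjusted p = 0.0032), the Id1 call being lost without LSD1CI library 1 or 3 (adjusted p = 0.010 and 0.027). All LSD1KO ESC libraries here lacked reads for the contig genes and all LSD1CI ESC libraries had them. This comparison therefore rests on the alignment term, which is estimated from the WT libraries of both kinds. Bmp7 was not as low in every set of LSD1KO ESCs, since it had 8.71 and 7.54 CPM in the DMSO libraries and 5.49 and 8.13 CPM in those without DOX.

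RCOR12DKO ESCs had 3 genes fallen and 1 risen (4 by DESeq2), where 18.3% of all genes were called. Id4 had 2.64, 2.46, 1.13 and 1.83 CPM in RCOR12DKO ESCs, against 3.48 to 20.5 CPM in WT ESCs (-2.36 ± 0.34, adjusted p = 3.9e-07). Bmp7 (-1.20 ± 0.36) and Id1 (-1.04 ± 0.32) fell and Id2 (1.32 ± 0.37) rose in the same cells. The Bmp7 and Id1 calls were lost without any 1 of the 4 RCOR12DKO libraries (adjusted p = 0.013 to 0.020 for Bmp7 and 0.016 to 0.023 for Id1), and the Id2 call without library 2 or 4 (adjusted p = 0.013 and 0.011). Id4 kept its call without any 1 of the RCOR12DKO libraries and with each pair of later WT libraries as the only reference, and the other 3 genes did not. By edgeR no gene was called in LSD1CI, RCOR1KO or RCOR2KO ESCs, where 3.91%, 0.0227% and 4.30% of all genes were called. At an unadjusted p below 0.05 there were 2, 2 and 3 genes, and by DESeq2 1, 1 and 2. Id3 had 13.9, 18.8, 16.6 and 22.9 CPM in RCOR2KO ESCs, above the WT range of 0.309 to 9.92 CPM, and narrowly missed (1.88 ± 0.56, adjusted p = 0.013).

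In MLL4KO ESCs Smad6 was lower and Id4 higher than in WT ESCs. MLL4KO ESCs had 2 genes risen and 2 fallen (4 by DESeq2), where 10.4% of all genes were called. Smad6 had 1.11 and 2.68 CPM in MLL4KO ESCs, against 4.20 to 9.03 CPM in WT ESCs (-2.004 ± 0.29, adjusted p = 6.5e-07), and Id4 had 22.4 and 28.8 CPM, against 3.48 to 20.5 CPM (1.34 ± 0.35, adjusted p = 0.0036). Id2 had 11.6 and 2.30 CPM in MLL4KO ESCs, against 0.690 to 3.02 CPM in WT ESCs (2.12 ± 0.44), so the call came from library 1 alone (0.54 without it, adjusted p = 0.61). Bmp7 fell by 1.79 ± 0.52, and neither it nor Id4 was called without either library (adjusted p = 0.23 and 0.010 for Bmp7, 0.020 and 0.093 for Id4). The Id4 value was 0.57 (adjusted p = 0.24) with WT libraries 10 and 11 as the only WT libraries with reads for the contig genes. It was 0.90 (adjusted p = 0.027) with libraries 6 and 7 in their place. The Id4 call was also lost without the alignment term (1.13, adjusted p = 0.015) and with only the compared groups (adjusted p = 0.10), whereas Smad6 kept its call with libraries 10 and 11.

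MLL4KO_LSD1CI ESCs had 1 gene risen and 2 fallen (3 by DESeq2), where 13.2% of all genes were called. Smad6 had 2.08, 1.24, 1.07 and 2.11 CPM in MLL4KO_LSD1CI ESCs, against 4.20 to 9.03 CPM in WT ESCs (-2.19 ± 0.22, adjusted p = 9.2e-11), and Id2 had 9.69, 3.94, 8.18 and 4.39 CPM, against 0.690 to 3.02 CPM (2.10 ± 0.37). Both genes were apart from all 11 WT libraries, and Smad6 was called with each subset of WT libraries as the reference. Bmp7 was the other gene that fell (-1.998 ± 0.39, adjusted p = 8.1e-05), and with WT libraries 10 and 11 the Bmp7 and Id2 calls were lost (adjusted p = 0.035 and 0.026). In MLL4LSD1_DKO ESCs, which lack LSD1 protein as well, 1 gene rose and 4 fell (5 by DESeq2), where 12.3% of all genes were called. Smad6 had 4.47, 4.07, 3.91 and 6.74 CPM there, with a log2 fold change of -0.65 ± 0.19 against WT (adjusted p = 0.0067) that was under the fold threshold. The MLL4 genotypes were not tested against each other. Id1 (-1.76 ± 0.35) and Bmp7 (-2.02 ± 0.39) fell and Id2 (1.53 ± 0.37) rose in MLL4LSD1_DKO ESCs. Msx2 had no read in any of the 4 libraries, against 0.272 CPM over the pooled WT ESC libraries. The WT ESC libraries themselves had 0 to 1.03 CPM of Msx2, with 4 of the 11 at 0 and 72 of their 112 reads in libraries 8 and 9. Without those 2 libraries, a choice made after seeing the data, the pooled WT level was 0.119 CPM and the Msx2 and Msx1 calls were lost (adjusted p = 0.022 and 0.036). Msx1 had a read in MLL4LSD1_DKO library 3 only (0.115 CPM). The Msx2 call was lost without any 1 of the 4 libraries (adjusted p = 0.012 to 0.014) and the Msx1 call without library 1, 2 or 4 (adjusted p = 0.025 to 0.029). In MLL4KO ESCs Msx2 was also at 0 in both libraries, as it was in 4 of the 11 WT libraries, and the gene was not called (adjusted p = 0.046).

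Putting LSD1 back was tested with DOX. In LSD1Res ESCs Kdm1a had 980 to 2253 CPM with DOX and 10.8 to 38.1 CPM without, so the induced RNA was several times that of WT ESCs (141 to 226 CPM). LSD1 protein was not measured here, and the study describes the induced protein in these cells as below its WT level. Of the 10 genes 1 fell (1 by DESeq2), where 2.37% of all genes were called. This was Smad6, with 2.22, 2.53, 3.73 and 2.59 CPM with DOX, against 6.03, 5.98, 7.15 and 8.30 CPM without (-1.28 ± 0.17, adjusted p = 0.00011). All 4 DOX libraries were below the lowest WT ESC library (4.20 CPM), so Smad6 did not move towards its WT level but away from it. Id1, which was low in LSD1KO ESCs, had 1.08, 0.883, 0.795 and 0.612 CPM with DOX, against 0.765, 0.292, 1.15 and 1.46 CPM without (-0.08 ± 0.45, adjusted p = 0.94), below the WT range of 1.66 to 4.02 CPM with or without LSD1.

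In DKO_LSD1 ESCs, which get the same LSD1 without RCOR1 or RCOR2, Kdm1a had 253 to 276 CPM without DOX and 1830 to 6038 CPM with DOX. The induced LSD1 thus came on top of Kdm1a RNA already at or above its WT level, unlike in LSD1Res ESCs. The study describes LSD1 protein as much reduced in RCOR12DKO cells and as comparable to WT after induction. By edgeR 0 genes were called with DOX (2 at an unadjusted p below 0.05, 0 by DESeq2), where 0.332% of all genes were called. Smad6 had 3.96, 4.82, 4.50 and 4.26 CPM with DOX, against 4.95, 4.89, 4.91 and 6.57 CPM without (-0.29 ± 0.17, adjusted p = 0.39). These libraries did not overlap, but the difference was small and was not called. Id1 had 0.172, 0.388, 0.559 and 0.0931 CPM with DOX, against 0.867, 0.698, 0.734 and 1.00 CPM without (-1.45 ± 0.48, adjusted p = 0.091), so the libraries did not overlap and the test did not pass. In LSD1KO ESCs with no transgene DOX gave 0 calls (0 at an unadjusted p below 0.05, 0 by DESeq2), where 0.0178% of all genes were called, and Smad6 had 6.75 and 7.83 CPM with DOX, against 7.19 and 5.72 CPM without (0.08 ± 0.23). The DOX effect in LSD1Res minus that in LSD1KO ESCs was called by edgeR for 0 of the 10 genes (1 at an unadjusted p below 0.05, 1 by DESeq2), where 0.0178% of all genes were called, with Smad6 at -1.36 ± 0.29 (adjusted p = 0.052). Smad6 was lower with DOX in all 4 numbered pairs of LSD1Res libraries and in all 4 of DKO_LSD1 libraries. It was higher in 1 and lower in 1 of the 2 LSD1KO pairs. With the pairs of LSD1Res and DKO_LSD1, whose replicate numbers pair the samples, as a block, a choice made after seeing the data, the Smad6 difference was -1.37 (adjusted p = 0.0039) and was called. The call of Smad6 thus differed with the fit, and it was also the gene called by DESeq2.

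The rest of the pathway was read from 45 further genes: 11 ligands, 9 receptors and co-receptors, 5 SMADs, 17 antagonists and 3 E proteins, the bHLH partners that Id proteins bind. In WT EBs against WT ESCs, 5 of 9 ligands tested rose and 1 fell, 8 of 9 receptors, 3 of 5 SMADs, 9 of 15 antagonists and 1 of 3 E proteins rose. The ligand gene Bmp5 rose by 11.04 ± 0.63, the receptor gene Bmpr2 by 1.87 ± 0.12, the receptor SMAD genes Smad1 and Smad5 by 1.46 ± 0.12 and 1.495 ± 0.10, and the secreted antagonist genes Bmper and Nog by 10.36 ± 0.38 and 6.12 ± 0.63. Bmp8a fell by 2.60 ± 0.49. Of all genes tested in this comparison 21.2% rose and 14.3% fell.

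In RCOR12DKO EBs 2 of 9 ligands, 2 of 9 receptors, 2 of 5 SMADs and 7 of 16 antagonists fell, and 1 ligand and 1 antagonist rose, where 12.3% of all genes fell and 14.1% rose. Bmp5 averaged 0.644 ± 0.0655 CPM in RCOR12DKO EBs (SD, n = 4) and 98.1 ± 44.5 CPM in WT EBs (SD, n = 7), with a log2 fold change of -7.25 ± 0.62 (edgeR, adjusted p = 5.4e-09). Smad1 fell by 1.76 ± 0.19 and Smad9 by 4.87 ± 0.61, and the antagonist genes Nog and Bmper fell by 4.72 ± 0.34 and 7.85 ± 0.59. Gdf5 was the ligand that rose (3.68 ± 0.86). In LSD1KO EBs 2 of 9 ligands, 1 of 5 SMADs and 5 of 16 antagonists fell, and 1 of 9 receptors and 2 antagonists rose. Of all genes 5.42% fell and 8.28% rose in this comparison, and counts of 1 or 2 genes in a list say little beside that. Bmp5 fell by 4.90 ± 0.71, Smad9 by 4.55 ± 0.81, Cer1 by 5.38 ± 1.22 and Nog by 1.83 ± 0.36. The follistatin gene Fst, whose product binds activins and BMPs outside the cell, averaged 212 ± 22.1 CPM in LSD1KO EBs (SD, n = 2), 8.57 ± 1.60 CPM in RCOR12DKO EBs (SD, n = 4) and 8.28 ± 3.54 CPM in WT EBs (SD, n = 7), a rise of 4.70 ± 0.42 in LSD1KO EBs (edgeR, adjusted p = 1.1e-07). The Fst interaction on EB formation for LSD1KO was 5.24 ± 0.46, so its rise in LSD1KO EBs was past the ESC difference as well. In the DMSO EBs Fst again rose in LSD1KO (4.46 ± 0.24), and Bmp5 (-6.08 ± 0.24) and Smad9 (-5.81 ± 0.33) fell. In EBs labelled RCOR2KO 1 ligand (Bmp5), 1 SMAD (Smad9) and 2 antagonists (Bmper and Bambi) fell, where 5.28% of all genes were called. In RCOR1KO EBs no gene of the lists was called, where 0.00558% of all genes were.

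With A485 in LSD1KO EBs 2 of 7 ligands tested, 2 of 9 receptors, 1 of 5 SMADs, 5 of 16 antagonists and 1 of 3 E proteins fell and none rose, where 9.54% of all genes fell and 4.26% rose. Fst averaged 4.82 ± 1.51 CPM with A485 and 138 ± 30.6 CPM with DMSO (SD, n = 2 each), with a log2 fold change of -4.73 ± 0.24 (edgeR, adjusted p = 1.3e-07). Rgma, a BMP co-receptor gene, was called as fallen with A485 in all 4 cultures, by 3.87 ± 0.30 in EBs, 2.33 ± 0.14 in ESCs, 2.12 ± 0.34 in FBS cells and 1.77 ± 0.40 in EpiLCs. Fst, by contrast, rose with A485 in FBS cells (1.45 ± 0.23) and EpiLCs (1.76 ± 0.17). The inhibitory SMAD gene Smad7 fell in ESCs (-1.35 ± 0.12) and EpiLCs (-1.02 ± 0.07), and Bmp6 fell in FBS cells (-3.23 ± 0.32) and EpiLCs (-2.74 ± 0.44).

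In ESCs some of the 45 genes were called. Of all genes, 13.3% were called in LSD1KO, 18.3% in RCOR12DKO and 10.4% in MLL4KO ESCs. The share was 12.3% in MLL4LSD1_DKO and 13.2% in MLL4KO_LSD1CI ESCs, and counts of 1 to 3 genes in a list say little beside that. LSD1KO ESCs had 2 of 7 ligands risen (Bmp6, 1.83 ± 0.46, and Bmp15, 3.74 ± 1.10) and 1 receptor, 1 SMAD, 1 antagonist and 1 E protein fallen (Rgmb, Smad9, Chrd and Tcf3). RCOR12DKO ESCs had 3 ligands risen, among them the oocyte ligand gene Bmp15 (5.97 ± 0.83), and 2 receptors fallen (Acvr2b, -1.01 ± 0.08, and Rgmb, -1.31 ± 0.17). In the 3 MLL4 genotypes Smad9 fell (-3.81 ± 0.77 in MLL4KO, -2.01 ± 0.47 in MLL4LSD1_DKO and -2.66 ± 0.51 in MLL4KO_LSD1CI) and the antagonist gene Grem1 rose (7.02 ± 1.44, 4.83 ± 1.46 and 7.86 ± 1.29 in the same order), although Grem1 averaged only 0.498 ± 0.298 CPM in MLL4KO, 0.104 ± 0.0947 CPM in MLL4LSD1_DKO and 0.846 ± 0.660 CPM in MLL4KO_LSD1CI ESCs. With DOX, Fst rose by 1.41 ± 0.27 in LSD1Res and by 1.72 ± 0.27 in DKO_LSD1 ESCs, and no gene of the lists was called in LSD1KO ESCs with DOX.

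**Figure D4:**
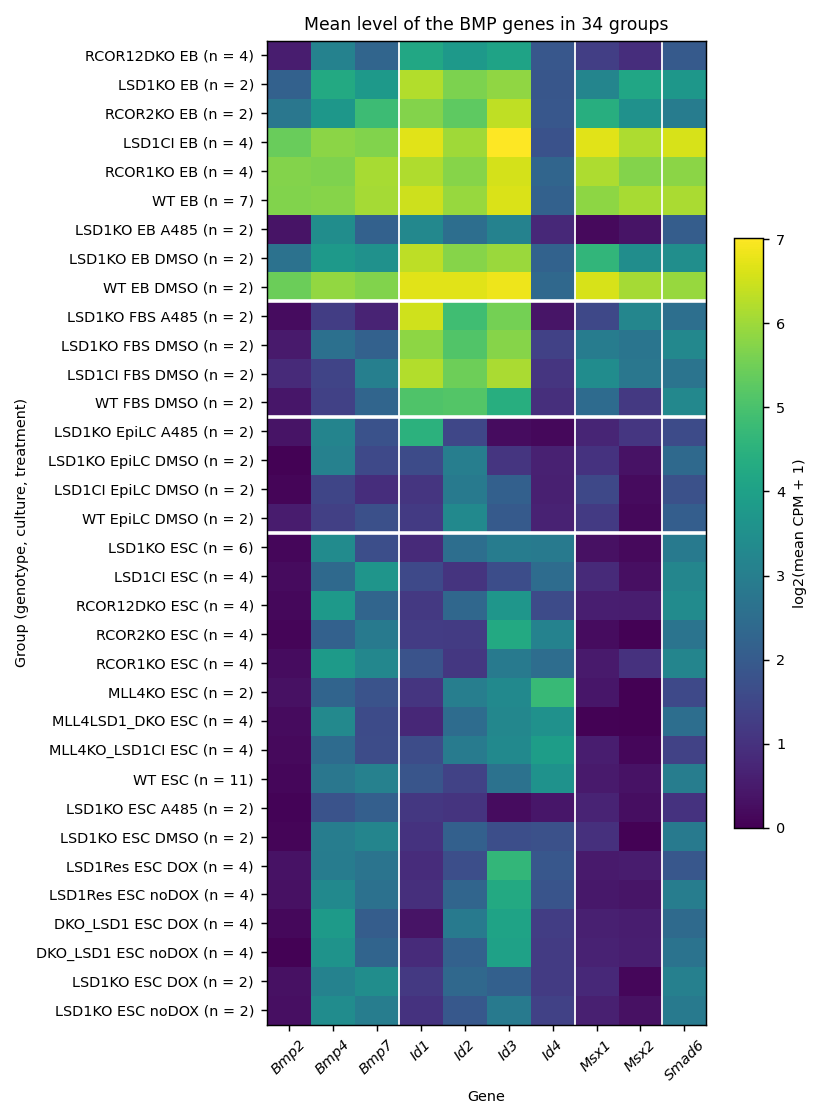
Mean level of each gene in all 34 groups as log2(mean CPM + 1), with EB, FBS, EpiLC and ESC groups in separate blocks from the top. The EB groups of WT (with or without DMSO), LSD1CI and RCOR1KO cells are the brightest rows, and RCOR12DKO EBs and LSD1KO EBs with A485 are darker than WT EBs in every column.

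Over the 34 groups, the highest mean of 9 of the 10 genes was in an EB group. Bmp2 (51.8 CPM) and Bmp7 (67.0 CPM) peaked in RCOR1KO EBs, Bmp4 (58.0 CPM) and Id2 (103.6 CPM) in WT EBs with DMSO, and Id1 (103.5 CPM), Id3 (129 CPM), Msx1 (103 CPM), Msx2 (69.9 CPM) and Smad6 (96.1 CPM) in LSD1CI EBs. Id4 was the exception, with its highest mean in MLL4KO ESCs (25.6 CPM). The lowest means lay in A485 groups for Bmp4 (1.43 CPM in FBS cells), Bmp7 (0.611 CPM in FBS cells), Id2 (1.07 CPM in ESCs), Id3 (0.166 CPM in EpiLCs), Id4 (0.119 CPM in EpiLCs) and Smad6 (1.02 CPM in ESCs). When groups were ordered by mean, 27 to 31 of the 33 neighbouring pairs overlapped in their library values, depending on the gene, so most neighbours in the order were not separated by their spread.

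The genes most like each member were taken as the 3 with the highest Pearson correlation of log2(mean CPM + 1) over the 34 groups, among 16444 genes that reached 1 CPM in a group. These are descriptions, since groups share cells, batches and depth. Bmp2 was most like Egflam (0.994), Foxa2 (0.991) and Sema6d (0.990), Bmp4 like Igf2bp2 (0.886), Sox17 (0.862) and Fam163a (0.855), and Bmp7 like Lhfpl2 (0.953), Cd248 (0.919) and Flrt3 (0.914). Foxa2 and Sox17 are endoderm regulators and were in the endoderm marker list above. Msx1 was most like Nedd9 (0.964), Pth1r (0.959) and Tnfaip2 (0.957), Msx2 like Dkk1 (0.972), Pmp22 (0.969) and Pcdh7 (0.967), and Smad6 like Lhfpl2 (0.921), Fgf3 (0.908) and Gata6 (0.906). The Id genes had no gene in common among their 3: Id1 was most like Sel1l3 (0.951), Stbd1 (0.941) and Tpm1 (0.940), Id2 like Thsd7a (0.927), Tgfb1i1 (0.922) and Col2a1 (0.922), Id3 like Efnb1 (0.836), Evx1 (0.818) and Klhl29 (0.813), and Id4 like Ncam1 (0.888), Prickle2 (0.875) and Tmem151b (0.873). Within the 10 genes, Msx1 with Msx2 (0.954), Bmp2 with Msx1 (0.938) and Bmp2 with Msx2 (0.928) were the closest pairs. Id1 was closest to Msx2 (0.881) and Id2 to Msx1 (0.880), with Id1 and Id2 at 0.869, while Id4 lay between -0.16 and 0.20 with the other 9.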

How the data were processed

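RNA was ribosome-depleted and sequenced with a directional kit. Per the paper's methods and the submitters' processing notes, the authors trimmed reads, aligned them to mm9 with STAR 2.7.9a, removed duplicates with Picard 2.25.5 and counted reads per gene with strand (featureCounts), and deposited a raw read count for each of 25209 genes in every library, with no normalization. Between 72.2% and 84.7% of a library's counts from 2 to 39 were even, so mates appear to have been counted separately, and halved counts were tried. Totals were 17.2 to 58.2 M counts. CPM used the library total. Tests used edgeR 4.0.16 (TMM, filterByExpr by group, robust quasi-likelihood) in R 4.3.3 on the counts as deposited, with Benjamini-Hochberg adjustment over all genes tested and the thresholds of 0.01 and a 2-fold change, in 33 comparisons. Fits held all groups of a culture or experiment, and those with the 9 ESC libraries that lacked contig genes carried a term for this. Alternatives were DESeq2 1.42.0, DESeq2 size factors, no filter, no alignment term, compared groups only, subsets of WT libraries, the replicate number as a block, and each library of groups of 2 to 5 left out (of larger groups, only WT ESC libraries 1 to 3 for LSD1KO ESCs). Replicate numbers paired the samples in LSD1Res (correlations of deviations 0.358 to 0.433) and DKO_LSD1 (0.318 to 0.419) with and without DOX, 4 pairs each, and nowhere else. Fits were tested on simulated data. All 10 genes were tested in every comparison but A485 in LSD1KO ESCs, where 8 had enough reads. Called genes are named, others where their values bear on a comparison, and up to 4 called genes per pathway list by smallest adjusted p. The genes and lists were chosen with earlier results of these data known. Sequences came from the mm9 genome, and figures were drawn with matplotlib 3.10.9. Counting error alone limits a count of 0 to 3 reads.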

Additional observations from a re-analysis of the deposited data

Results flagged for a closer look

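Of 149 pairs of a gene and a group of 4 to 10 libraries examined, 7 held a library whose distance to the nearest other was large against the range of the group, where chance gives about 1 in 20. Bmp4 had 11.3 CPM in LSD1KO ESC library 1, against 8.66 to 9.53 CPM in the other 5. Msx1 had 0.715 CPM in LSD1KO ESC library 3, against 0.0522 to 0.251 CPM, and 0.115 CPM in MLL4LSD1_DKO library 3, against 0 in the other 3. Id1 had 1.69 CPM in RCOR1KO ESC library 1, against 2.72 to 2.79 CPM. Smad6 had 6.57 CPM in DKO_LSD1 library 4 without DOX, against 4.89 to 4.95 CPM. Bmp2 had 0.138 CPM in DKO_LSD1 library 3 without DOX, against 0 in the others, and 0 CPM in MLL4LSD1_DKO library 2, against 0.192 to 0.230 CPM.

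The change on EB formation differed between genotypes by the interaction test for 13 values. The LSD1KO change minus the WT change was -2.61 for Bmp4, -2.61 for Smad6 and 1.82 for Id1 on the log2 scale. The RCOR12DKO change minus the WT change was -7.18 for Bmp2, -3.66 for Bmp4, -2.90 for Bmp7, -1.32 for Id1, -3.59 for Id2, -3.70 for Id3, 1.99 for Id4, -5.82 for Msx1, -6.44 for Msx2 and -4.77 for Smad6.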

How the results depend on the processing

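Of 109 called values of the 10 genes in 33 comparisons, 69 were called under every alternative run and 40 lost their call under at least 1, and none changed sign with a call. The cause of each change was not tested. Depth limits Bmp2, Msx1 and Msx2 in ESCs, where most libraries held few reads.

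The number of genes called moved as follows. With DESeq2 it was 1 in place of 0 for LSD1CI and RCOR1KO ESCs and for the DOX interaction, 2 in place of 0 for RCOR2KO ESCs, 5 in place of 3 for LSD1KO and RCOR2KO EBs, and 4 in place of 1 for LSD1CI FBS cells. Without the alignment term it was 1 for LSD1CI ESCs, 2 in place of 4 for MLL4KO ESCs and 5 in place of 3 for the LSD1KO interaction on EB formation, which also gave 5 with halved counts. Halved counts gave 1 for RCOR2KO ESCs, and no filter gave 1 in place of 0 for LSD1CI EpiLCs. With only the compared groups it was 3 in place of 5 for MLL4LSD1_DKO ESCs and 1 in place of 3 for RCOR2KO EBs.

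With WT ESC libraries 4 and 5 as the only reference it was 2 in place of 4 for RCOR12DKO ESCs. With libraries 6 and 7 it was 1 for LSD1CI and RCOR1KO ESCs, 2 for MLL4KO ESCs and 1 for MLL4LSD1_DKO ESCs. With libraries 8 and 9 it was 2 for RCOR2KO ESCs, 2 for RCOR12DKO ESCs and 5 in place of 3 for MLL4KO_LSD1CI ESCs. With libraries 10 and 11 it was 1 for LSD1CI ESCs, 2 for RCOR1KO ESCs, 1 for RCOR2KO ESCs, 2 for RCOR12DKO ESCs and 1 for each of the 3 MLL4 genotypes. Without WT EB libraries 2 and 6, chosen after seeing the data and low in some of the tested genes, it was 6 for LSD1KO EBs and 5 for RCOR2KO EBs. Without WT ESC libraries 8 and 9, likewise chosen after seeing the data, it was 3 in place of 5 for MLL4LSD1_DKO ESCs.

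With the replicate number as a block, although the numbers pair the samples only in the LSD1Res and DKO_LSD1 comparisons, where no call changed, the number called was 5 in place of 3 for LSD1KO ESCs, 0 in place of 4 for RCOR12DKO ESCs, 0 in place of 5 for MLL4LSD1_DKO ESCs, 0 in place of 3 for MLL4KO_LSD1CI ESCs, 4 in place of 1 for LSD1CI FBS cells, and 1 in place of 0 for LSD1CI EpiLCs and for LSD1KO ESCs with DOX. With only the LSD1Res and DKO_LSD1 pairs as a block, added after seeing the data, the DOX interaction had 1 gene called in place of 0 (Smad6, -1.37). The block could not be fitted for MLL4KO ESCs, LSD1KO against LSD1CI ESCs, or WT FBS cells and EpiLCs against ESCs.

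With each library of a group of 2 to 5 left out in turn (for LSD1KO ESCs, WT libraries 1, 2 and 3 only), the number called was 2 to 3 for LSD1KO ESCs, 1 to 2 for RCOR12DKO ESCs, 1 to 2 for MLL4KO ESCs, 3 to 4 for MLL4LSD1_DKO ESCs, 1 to 3 for LSD1KO against LSD1CI ESCs, 2 for LSD1KO and RCOR2KO EBs, 9 for RCOR12DKO EBs, 2 to 5 for LSD1KO against LSD1CI EBs, 4 for WT FBS cells, 2 to 3 for WT EpiLCs, 1 to 2 for the LSD1KO and 10 for the RCOR12DKO interaction, 6 to 8 for the DMSO EBs, 8 to 9 for A485 in EBs, 6 in ESCs, 1 to 4 in FBS cells and 3 to 4 in EpiLCs, 1 to 2 for LSD1KO and 1 to 3 for LSD1CI FBS cells, 1 to 2 for LSD1KO EpiLCs and 1 for LSD1Res. Where this leaves 1 library in a group, that library is assumed to vary like the other groups. Leaving out single libraries was not run for WT EBs against WT ESCs, and a fit of the compared groups alone was not run for LSD1KO against LSD1CI ESCs or A485 in ESCs.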
